A study of Homo sapiens with 12 samples.

Results

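A set of 9 genes of the actin cytoskeleton and of focal adhesions were followed through RNA-Seq libraries of A549 cells with and without the transcription factor GFI1, attached or floating. They were chosen by name: the rows of the count table whose gene symbol is FLNA, ACTN1, ACTN4, VCL, TLN1, ZYX, MYH9, MYL9 or TAGLN, 9 of 58735 genes. Of these, 8 passed the filter on low counts and were tested among 17829 genes, and MYL9 was too low to be tested. A549 cells, an established line from a human lung adenocarcinoma, normally grow adherent. The 4 groups were attached control cells, attached GFI1-expressing cells, floating control cells and floating GFI1-expressing cells, with 3 libraries in each. The floating cells had been kept off the substrate by force for 48 hours, and the attached cells were untreated. GFI1 was introduced with a lentivirus that holds a human PGK promoter and GFP, and the study states that transduced cells were sorted by GFP before RNA-Seq. The vector of the control cells used for RNA-Seq is not given in the sources used here, so an effect of GFI1 and an effect of transduction cannot be told apart. Both genotypes were grown in the same medium, and the labels do not say whether replicate libraries came from separate cultures, so the p values measure the spread between these libraries.

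Adherent cells are held to their matrix by integrins, whose cytoplasmic tails are tied to actin filaments by linker proteins at focal adhesions. Filamin and the alpha-actinins cross-link those filaments into networks and bundles, talin, vinculin and zyxin couple them to the adhesion, and non-muscle myosin II pulls on them. In cells spread on a stiff substrate this machinery forms stress fibres, and the genes of many of its proteins are known targets of the serum response factor SRF and its actin-sensing coactivators, the MRTFs.

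FLNA, which encodes filamin A, the actin cross-linker that also binds integrin tails, lies on the minus strand of chromosome X (chrX:154348524-154374634, GRCh38, GENCODE v44). Its product's partners in cross-linking are alpha-actinin 1 (ACTN1, chr14:68874128-68979440, minus strand) and alpha-actinin 4 (ACTN4, chr19:38647649-38731589, plus strand). The linker genes are VCL, for vinculin (chr10:73995193-74121363, plus strand), TLN1, for talin 1 (chr9:35696948-35732195, minus strand), and ZYX, for zyxin (chr7:143381295-143391111, plus strand). MYH9 encodes the heavy chain of non-muscle myosin IIA (chr22:36281280-36388010, minus strand) and MYL9 a myosin regulatory light chain (chr20:36541497-36551447, plus strand). TAGLN encodes transgelin, an actin-binding protein best known from smooth muscle (chr11:117199370-117207464, plus strand). Counts were summed over the exons of each gene, so no isoform is distinguished.

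The promoter windows of FLNA, ACTN4 and MYH9 are shown because these genes had the largest GFI1 effects of the 8, with FLNA and ACTN4 lower and MYH9 higher in GFI1-expressing cells. Each window, taken from RefSeq on GRCh38.p14, runs from 250 bases before to 50 bases after the transcription start and is printed along the gene's strand. Capitals mark the SRF site known as the CArG box and the AATC core of the GFI1 site, written GATT where it lies on the other strand.
FLNA, chrX:154374585-154374884, minus strand: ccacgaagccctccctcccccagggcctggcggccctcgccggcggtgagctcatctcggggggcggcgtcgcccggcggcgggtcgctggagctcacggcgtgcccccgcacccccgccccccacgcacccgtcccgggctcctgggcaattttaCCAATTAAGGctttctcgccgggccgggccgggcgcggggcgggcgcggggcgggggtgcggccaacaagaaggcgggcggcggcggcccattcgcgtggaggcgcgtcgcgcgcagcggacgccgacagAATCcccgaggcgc
ACTN4, chr19:38647399-38647698, plus strand: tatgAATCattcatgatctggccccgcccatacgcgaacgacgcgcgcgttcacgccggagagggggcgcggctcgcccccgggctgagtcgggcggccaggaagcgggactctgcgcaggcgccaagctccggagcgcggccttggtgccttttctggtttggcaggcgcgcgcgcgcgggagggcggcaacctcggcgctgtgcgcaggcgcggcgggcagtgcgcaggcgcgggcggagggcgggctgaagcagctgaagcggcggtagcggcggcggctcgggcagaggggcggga
MYH9, chr22:36387918-36388217, minus strand: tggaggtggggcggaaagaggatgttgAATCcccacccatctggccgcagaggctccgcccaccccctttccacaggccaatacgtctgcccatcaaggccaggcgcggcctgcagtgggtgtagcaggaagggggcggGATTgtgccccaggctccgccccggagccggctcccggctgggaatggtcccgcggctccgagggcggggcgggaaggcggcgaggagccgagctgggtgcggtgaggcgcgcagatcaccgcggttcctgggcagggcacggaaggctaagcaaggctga
The CArG box in the FLNA window starts 94 bases before the transcription start, and 1.29% of the 35116 windows of this length in the RefSeq set hold such a box on either strand. Among the 11 windows of the 7 genes that had one, a CArG box was found in 2 windows, that of FLNA and an alternative start of ACTN1 (chr14:68977517-68977816, box 171 bases before the start). An AATC core was present in 8 of the 11 windows and in 69.0% of all windows, so its letters are common. Such matches describe sequence only and do not show that a factor is bound. TAGLN and MYL9 had no window and are named only.

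In attached control cells the 9 genes covered a wide range of abundance. Per kilobase of gene model, mean CPM (counts relative to the library's total, scaled by the TMM method) were 392 ± 15.5 (SD, n = 3) for FLNA and 388 ± 17.4 for ACTN4, 2 values that differ by less than their spread. MYH9 followed at 68.5 ± 2.72 CPM per kilobase, then ACTN1 at 44.7 ± 1.55, TLN1 at 40.0 ± 0.43, VCL at 38.8 ± 0.64 and ZYX at 25.4 ± 0.82. TAGLN was at 2.12 ± 0.14 and MYL9 at 0.16 ± 0.094 CPM per kilobase. Together the 9 genes took 0.803% ± 0.034 (SD, n = 3) of all counts in attached control libraries, 0.558% ± 0.0072 in attached GFI1, 0.451% ± 0.015 in floating control and 0.410% ± 0.0075 in floating GFI1 libraries.

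Total counts per library ran from 17014188 to 20748677. GFI1 itself was at 0.471 ± 0.21 CPM in attached control and 0.624 ± 0.12 CPM in floating control cells, and at 290.1 ± 4.4 and 560.1 ± 138 CPM in attached and floating GFI1 cells, so the labels matched the introduced gene. The floating GFI1 libraries differed most among themselves, with GFI1 at 545, 706 and 430.2 CPM in replicates 1 to 3, and their replicates 2 and 3 were the least alike of all same-group pairs (chi-square per gene 11.4, against 1.99 to 4.84 for the other 11 pairs). The cell line's epithelial markers (KRT7, KRT8, KRT18, KRT19, EPCAM and CDH1) summed to between 10386 and 10986 CPM in attached control, 4222 and 4339 CPM in attached GFI1, 6529 and 6938 CPM in floating control and 3039 and 3411 CPM in floating GFI1 libraries, with KRT19 and EPCAM under 5 CPM in every library. Of the 6 markers, 5 were lower (32.8% of all genes tested) and 1 higher (29.5%) with GFI1 in attached cells. The part of these markers in the results that follow was not tested. Lung lineage markers (NKX2-1, NAPSA, SFTPB and SFTPC) summed to at most 6.34 CPM, 5 of 9 fibroblast markers and 3 of 5 blood markers had 3 counts or fewer in every library, and the smooth muscle markers, mostly SMTN, summed to between 30.7 and 35.8 CPM in attached control, 35.2 and 41.4 CPM in attached GFI1, 20.3 and 24.8 CPM in floating control and 25.7 and 34.6 CPM in floating GFI1 libraries. The blood markers summed to at most 8.21 CPM except in floating control libraries, at 11.1 to 14.7 CPM. In bulk libraries of this kind, fewer cells of a state and less RNA per cell cannot be told apart.

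**Figure D1:**
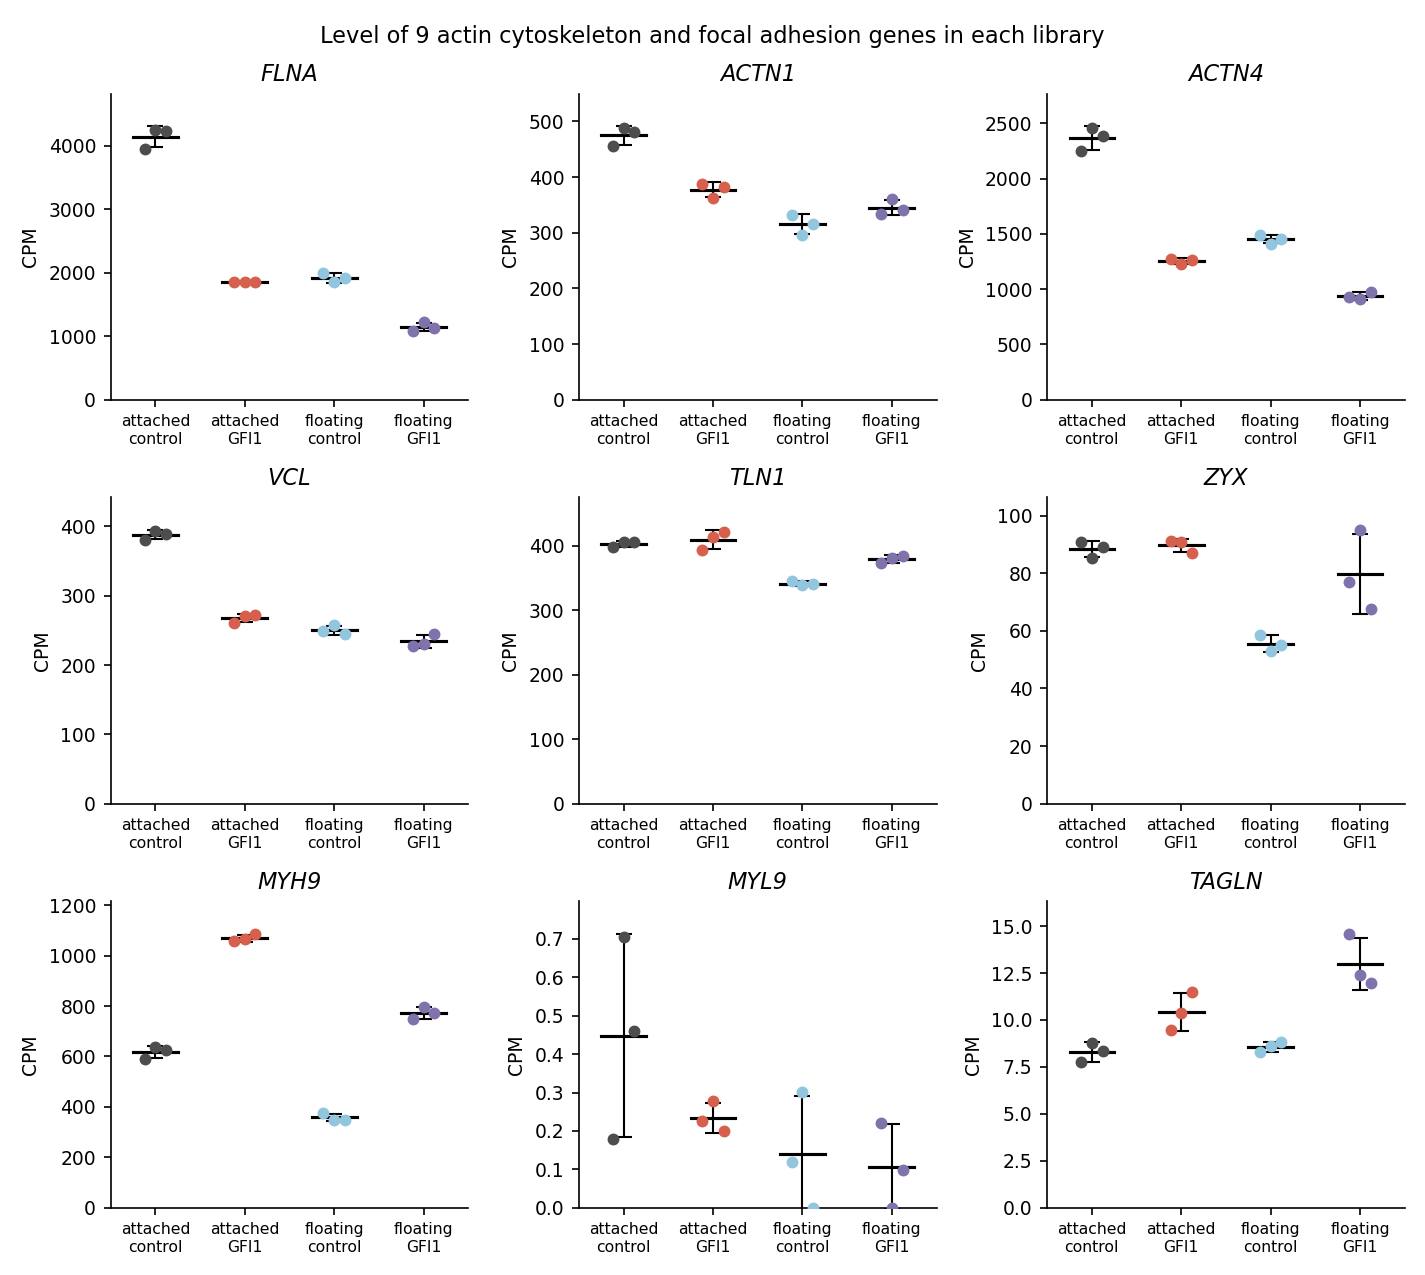
Level of each of the 9 genes (y axis, TMM-scaled CPM on a linear scale from 0) in the 4 groups (x axis). Points are the 3 libraries of a group, the black line their mean and the bar 1 SD, with bars that reach below 0 clipped for MYL9. FLNA and ACTN4 were highest in attached control and lowest in floating GFI1 libraries, MYH9 was highest in attached GFI1 and lowest in floating control libraries, and MYL9 never exceeded 0.706 CPM.

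The first question was how these genes differed with GFI1 in attached cells. FLNA and ACTN4 fell most, VCL and ACTN1 fell by less, MYH9 and TAGLN rose, and TLN1 and ZYX showed no difference beyond their spread. By edgeR's quasi-likelihood test, with p values adjusted after Benjamini and Hochberg and called at 0.05 or less, 6 of the 8 genes were called, where 62.3% of all genes tested were called. Of the 8, 2 were higher (29.5% of all genes) and 4 lower (32.8% of all genes), and the 6 called genes were those whose CPM did not overlap between the groups (67% of all genes). A share of 6 in 8 is near the background, so the directions and sizes, not the number of calls, describe these genes. Their median log2 fold change was -0.16, against -0.0066 over all genes tested. With libraries scaled by total count alone, the median of all genes moved by 0.15 on the log2 scale in this comparison and by 0.13 in floating cells, and the share of calls that were higher went from 47.4% to 61.5% and from 48.5% to 61.4%. The median of the 8 genes was then -0.0084 in attached and 0.27 in floating cells.

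The cross-linkers fell. FLNA was at 3956, 4247 and 4230.3 CPM in attached control replicates 1 to 3 and at 1854, 1858 and 1863 CPM in attached GFI1 replicates. The GFI1 libraries were all below every control library, and the log2 fold change was -1.16 ± 0.05 (SE, edgeR adjusted p = 3.53e-17), a level 2.23-fold lower. ACTN4, whose product bundles actin at the cell edge and along fibres, was at 2251, 2459 and 2388 CPM in control and 1273, 1228 and 1266 CPM in GFI1 libraries. Its groups did not overlap, and it fell by 0.91 ± 0.04 on the log2 scale (edgeR adjusted p = 1.20e-15). FLNA and ACTN4 were named by the study as lowered by GFI1, partly from these libraries, so their direction is not independent evidence. ACTN1, the second non-muscle alpha-actinin, was at 456, 488 and 480.4 CPM in control and 388, 362 and 382 CPM in GFI1 libraries. That fall was smaller, -0.33 ± 0.05 (edgeR adjusted p = 9.91e-07), also without overlap.

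The linkers split. VCL, whose product reinforces the talin to actin link, was at 381, 394 and 389 CPM in control and 261, 271 and 272 CPM in GFI1 libraries. It fell by 0.53 ± 0.04 on the log2 scale with no overlap between groups (edgeR adjusted p = 2.53e-11). TLN1, which encodes the protein that activates and anchors integrins, was at 398, 405 and 406 CPM in control and 393, 413 and 422 CPM in GFI1 libraries. These ranges overlapped, and the log2 difference was 0.02 ± 0.04 (edgeR adjusted p = 0.637). ZYX, which encodes a LIM protein recruited to stretched adhesions and stress fibres, was at 91.0, 85.4 and 89.0 CPM in control and 91.2, 90.8 and 87.0 CPM in GFI1 libraries. Its log2 difference was 0.02 ± 0.07 (edgeR adjusted p = 0.832), and it changed sign when attached control replicate 2 was left out. By total-count scaling alone TLN1 (0.17, edgeR adjusted p = 0.000564) and ZYX (0.17, edgeR adjusted p = 0.0435) passed the threshold as higher, by little more than the shift of all genes.

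The myosin heavy chain went the other way. MYH9 was at 589.97, 637 and 626 CPM in attached control and 1056, 1064 and 1084 CPM in attached GFI1 libraries, a rise of 0.79 ± 0.04 on the log2 scale (edgeR adjusted p = 2.31e-14) with every GFI1 library above every control library. TAGLN was at 7.74, 8.80 and 8.32 CPM in control and 9.46, 10.4 and 11.5 CPM in GFI1 libraries. It rose by 0.33 ± 0.11 (edgeR adjusted p = 0.00956) without overlap, and the call was lost when attached GFI1 replicate 3 was left out (0.26, edgeR adjusted p = 0.0628). TAGLN exons share 34.1% of their bases with PCSK7 on the opposite strand in GENCODE v44, and the strand setting of the counting is not given in the sources used here, so reads of both genes could be mixed. On the same strand 38.1% of TAGLN exon bases are shared with the unnamed gene ENSG00000280143, which was counted at 0.454 CPM or less on average in every group and was too low to be tested. PCSK7 was counted at 27.6 ± 1.63 CPM in attached control and 28.8 ± 1.70 CPM in attached GFI1 libraries, a log2 difference of 0.06 ± 0.07 (edgeR adjusted p = 0.487). Shared exon bases were 14.2% for ACTN4 with CAPN12, at 7.11 CPM or less on average in every group, and 11.1% for VCL with AP3M1, which was at -0.11 ± 0.04 in attached cells with GFI1 (edgeR adjusted p = 0.0292). With GFI1 CAPN12 was at -1.38 ± 0.21 in attached cells (edgeR adjusted p = 2.41e-06) and 0.10 ± 0.21 in floating cells (edgeR adjusted p = 0.698). With suspension it was at -0.79 ± 0.20 in control cells (edgeR adjusted p = 0.0023) and 0.69 ± 0.22 in GFI1 cells (edgeR adjusted p = 0.0168). The part of CAPN12 in the ACTN4 counts was not tested.

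MYL9 had 3, 13 and 8 counts in attached control, 4, 6 and 4 counts in attached GFI1, 2, 5 and 0 counts in floating control and 4, 0 and 2 counts in floating GFI1 replicates. At this depth the groups could not be told apart for MYL9, and a count of 0 allows up to 3 counts. The other regulatory light chain genes carried far more counts per kilobase in attached control cells, 97.4 CPM for MYL12B and 45.5 CPM for MYL12A, although reads of these near-identical copies may be split between them. The essential light chain gene MYL6 was at 88.9 CPM per kilobase. The deposited gene lengths were 1932, 3245 and 4609 bases for MYL12B, MYL12A and MYL6. Not divided by length, these genes were at 188, 148 and 410 CPM, so their order depends on the lengths used.

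In floating cells the same comparison, GFI1 against control, gave another mix of directions. FLNA and ACTN4 were again lower, MYH9 and TAGLN again higher, and TLN1, ZYX and ACTN1 now passed the threshold as higher. Of the 8 genes, 7 were called, where 60.4% of all genes tested were called, with 5 higher (29.3% of all genes) and 2 lower (31.1% of all genes). The CPM of 7 genes did not overlap between groups (64.4% of all genes). The median over the 8 genes was 0.14, against 0.01 over all genes. Each group enters several of these comparisons, so their values share libraries and are set side by side here without a correlation.

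FLNA was at 2004, 1848 and 1912 CPM in floating control and 1087, 1219 and 1137 CPM in floating GFI1 libraries, a fall of 0.74 ± 0.05 on the log2 scale (edgeR adjusted p = 3.10e-13). ACTN4 was at 1486, 1412 and 1457 CPM against 930.4, 909 and 977 CPM, a fall of 0.63 ± 0.04 (edgeR adjusted p = 2.49e-12). For both genes every GFI1 library was below every control library. ACTN1 was at 333, 297 and 315 CPM in control and 333, 360.03 and 342 CPM in GFI1 libraries, with the lowest GFI1 library just above the highest control library. Its log2 fold change of 0.13 ± 0.05 (edgeR adjusted p = 0.0187) was opposite in sign to that in attached cells. The call was lost without floating control replicate 2 (0.09, edgeR adjusted p = 0.149) or floating GFI1 replicate 2 (0.11, edgeR adjusted p = 0.0668).

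VCL was at 249, 258 and 244 CPM in floating control and 228, 230.2 and 245 CPM in floating GFI1 libraries. The ranges overlapped, and the log2 difference of -0.09 ± 0.04 missed the threshold (edgeR adjusted p = 0.0551). It passed under DESeq2 (-0.10, adjusted p = 0.0403), without floating control replicate 3 (-0.11, edgeR adjusted p = 0.0488) and without floating GFI1 replicate 3 (-0.13, edgeR adjusted p = 0.0117), and turned to 0.04 by total-count scaling. AP3M1, which shares exon bases with VCL, was at -0.22 ± 0.05 in the same comparison (edgeR adjusted p = 0.000164), and at -0.20 ± 0.04 with suspension of GFI1 cells (edgeR adjusted p = 0.00121). TLN1 was at 345, 338 and 341 CPM in control and 373, 381 and 383 CPM in GFI1 libraries, a rise of 0.15 ± 0.04 without overlap (edgeR adjusted p = 0.0018). ZYX was at 58.6, 52.9 and 55.2 CPM in control and 76.8, 94.9 and 67.6 CPM in GFI1 libraries, a rise of 0.52 ± 0.08 (edgeR adjusted p = 2.24e-06). The spread of ZYX in floating GFI1 libraries (SD 13.9 CPM) was the widest of its 4 groups, and its highest value was in replicate 2, the library with the most GFI1. Without that library the rise was 0.38, and a relation of ZYX to the GFI1 level was not tested.

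MYH9 was at 375, 349.5 and 349.8 CPM in floating control and 750.4, 798 and 771 CPM in floating GFI1 libraries. The log2 fold change was 1.11 ± 0.04 (edgeR adjusted p = 2.68e-17), and the groups were far apart. TAGLN was at 8.30, 8.61 and 8.84 CPM in control and 14.6, 12.4 and 11.99 CPM in GFI1 libraries, a rise of 0.60 ± 0.11 without overlap (edgeR adjusted p = 2.84e-05). PCSK7 differed by 0.06 ± 0.07 in the same comparison (edgeR adjusted p = 0.492).

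**Figure D2:**
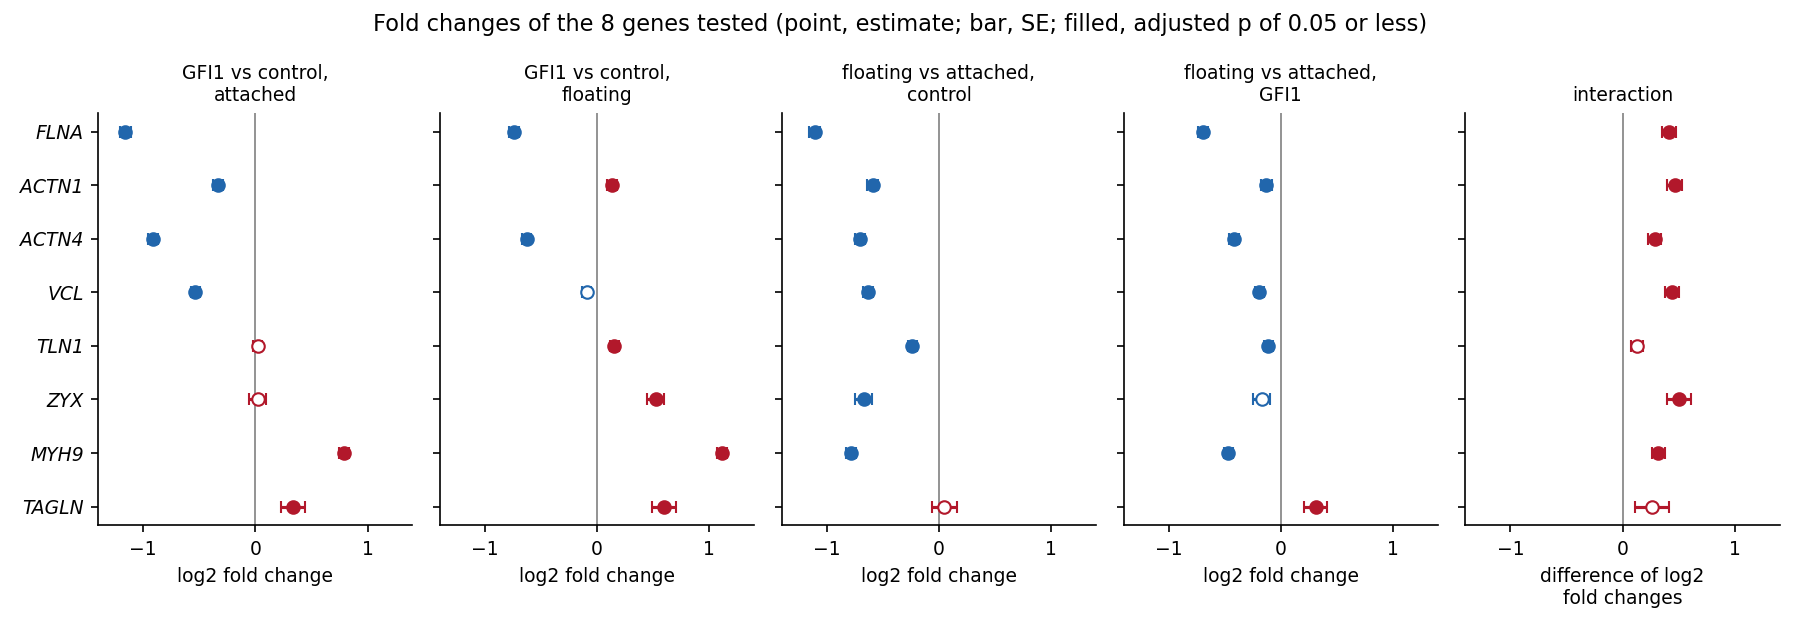
Log2 fold changes (x axis) of the 8 tested genes (y axis) in the 4 pairwise comparisons, and the difference between the GFI1 effects in floating and attached cells (last panel). Points are estimates and bars their SE, blue below 0 and red above, with filled points at an adjusted p of 0.05 or less in edgeR. Suspension lowered 7 of 8 genes in control cells, and the last panel holds 6 filled points, all to the right of 0.

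The second question was what loss of the substrate did. In control cells 7 of the 8 genes fell with suspension and none rose, where 40.1% of all genes tested were called, 20.5% lower and 19.6% higher. The 7 were also the genes whose groups did not overlap (49.9% of all genes). The median of the 8 genes was -0.65, against 0.01 over all genes. FLNA fell most, by 1.11 ± 0.05 on the log2 scale (edgeR adjusted p = 1.33e-15). MYH9 fell by 0.79 ± 0.04 (edgeR adjusted p = 2.66e-13), ACTN4 by 0.70 ± 0.04 (edgeR adjusted p = 1.63e-12) and ZYX by 0.67 ± 0.08 (edgeR adjusted p = 1.06e-07). VCL fell by 0.63 ± 0.04 (edgeR adjusted p = 6.47e-12), ACTN1 by 0.59 ± 0.05 (edgeR adjusted p = 1.89e-10) and TLN1 by 0.24 ± 0.04 (edgeR adjusted p = 2.29e-05). So MYH9, higher with GFI1, and FLNA, lower with GFI1, both moved down when control cells floated. TAGLN alone of the 8 differed by less than its spread, 0.05 ± 0.11 (edgeR adjusted p = 0.773). PCSK7, which shares exon bases with TAGLN, was at -0.21 ± 0.07 in the same comparison (edgeR adjusted p = 0.0286). With suspension of GFI1 cells PCSK7 was also at -0.21 ± 0.07 (edgeR adjusted p = 0.0316).

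In GFI1-expressing cells the falls with suspension were smaller on the log2 scale. There, 7 of 8 genes were called, where 31.3% of all genes were, with 6 lower (16.3% of all genes) and 1 higher (15% of all genes). The CPM of 7 genes did not overlap between groups (41.4% of all genes). The median was -0.18, against 0.0017 over all genes. FLNA fell by 0.69 ± 0.05 (edgeR adjusted p = 1.78e-11), MYH9 by 0.47 ± 0.04 (edgeR adjusted p = 4.85e-09), ACTN4 by 0.42 ± 0.04 (edgeR adjusted p = 3.27e-08) and VCL by 0.19 ± 0.04 (edgeR adjusted p = 0.000818). ACTN1 (-0.13 ± 0.05, edgeR adjusted p = 0.0369) and TLN1 (-0.11 ± 0.04, edgeR adjusted p = 0.0343) passed narrowly, and TAGLN rose by 0.31 ± 0.10 (edgeR adjusted p = 0.0205). These 3 calls were all lost without floating GFI1 replicate 1, which left 4 of 8. The ACTN1 call was also lost without attached GFI1 replicate 1 or 3 or floating GFI1 replicate 3, that of TLN1 without attached GFI1 replicate 2 or 3, and that of TAGLN without attached GFI1 replicate 1 and under DESeq2 (adjusted p = 0.0955). Upper quartile scaling and the absence of a low-count filter each ended the ACTN1 and TLN1 calls, as did the fit to only the 2 groups for TLN1. ZYX missed the threshold (-0.17 ± 0.07, edgeR adjusted p = 0.0828), and without floating GFI1 replicate 2 it was at -0.33 (edgeR adjusted p = 1.50e-05), and with no low-count filter it also passed (edgeR adjusted p = 0.0195).

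The difference between the GFI1 effects in floating and attached cells, which equals the difference between the suspension effects in the 2 genotypes, was tested as an interaction. Of the 8 genes, 6 passed, where 10.8% of all genes tested did, and all 6 were higher (4.76% of all genes) and none lower (6.01% of all genes). The largest were ZYX (0.50 ± 0.11, edgeR adjusted p = 0.00229), ACTN1 (0.46 ± 0.07, edgeR adjusted p = 2.61e-05) and VCL (0.44 ± 0.06, edgeR adjusted p = 1.03e-05). FLNA was at 0.41 ± 0.06 (edgeR adjusted p = 8.01e-05), MYH9 at 0.32 ± 0.06 (edgeR adjusted p = 0.000752) and ACTN4 at 0.29 ± 0.06 (edgeR adjusted p = 0.00233). TLN1 (0.13 ± 0.06, edgeR adjusted p = 0.156) and TAGLN (0.26 ± 0.15, edgeR adjusted p = 0.324) had the same sign without passing. The median of the 8 genes was 0.37, against -0.0036 over all genes. GFI1 itself was on average higher in floating than in attached GFI1 cells, by 0.95 ± 0.10 on the log2 scale (edgeR adjusted p = 2.38e-08), and its part in this difference was not tested.

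Few of these changes reached a fold of 2. With that required beside the adjusted p, FLNA was called for GFI1 in attached cells (18.2% of all genes were), MYH9 for GFI1 in floating cells (17.3% of all genes) and FLNA for suspension of control cells (5.1% of all genes). None of the 8 was called for suspension of GFI1 cells (2.8% of all genes) or in the interaction (1.35% of all genes).

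An interaction on the log2 scale compares ratios, and the picture in CPM was not the same for each gene. With suspension FLNA changed by -2223 ± 105 CPM (SE) in control cells and by -710.1 ± 38.5 CPM in GFI1 cells, and ACTN4 by -914 ± 64.9 and -317 ± 24.4 CPM. The changes of VCL were -137 ± 5.32 and -33.3 ± 6.46 CPM. MYH9, which started from a higher level in GFI1 cells, changed by -259 ± 16.6 CPM in control and by -295 ± 16.1 CPM in GFI1 cells, so its smaller ratio in GFI1 cells was not a smaller loss in CPM.

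Set in order, the 4 groups were arranged in a way that differed from gene to gene. FLNA and ACTN4 ran from attached control down to floating GFI1, and for FLNA the middle groups, attached GFI1 and floating control, could not be separated (log2 difference 0.05 ± 0.05, edgeR adjusted p = 0.383). For ACTN4 floating control was above attached GFI1 by 0.21 ± 0.04 (edgeR adjusted p = 0.000175). VCL had the same order at its top, with attached GFI1, floating control and floating GFI1 close together at 268, 250.4 and 235 CPM on average. In ACTN1 the lowest group was floating control, not floating GFI1. TLN1 and ZYX were lowest in floating control as well, and their other groups lay close, with floating GFI1 against attached control at -0.09 ± 0.04 for TLN1 (edgeR adjusted p = 0.0525) and -0.15 ± 0.07 for ZYX (edgeR adjusted p = 0.0752). MYH9 ran attached GFI1, floating GFI1, attached control, floating control, and floating GFI1 remained above attached control by 0.32 ± 0.04 (edgeR adjusted p = 2.93e-07). TAGLN was highest in floating GFI1 cells, with the control groups lowest and not separated.

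FLNA and MYH9 moved apart with GFI1, so a difference in their ratio follows from the values above. The ratio within a library is given because no scaling between libraries can change it. Per kilobase, MYH9 counts were 0.175 ± 0.0011 (SD, n = 3) of FLNA counts in attached control, 0.675 ± 0.0076 in attached GFI1, 0.219 ± 0.0038 in floating control and 0.792 ± 0.021 in floating GFI1 libraries. The ratio of MYH9 to its paralog MYH10, the heavy chain of non-muscle myosin IIB, was 6.60 ± 0.053 and 5.96 ± 0.25 in attached and floating control and 26.3 ± 1.16 and 24.1 ± 1.09 in attached and floating GFI1 libraries. The alpha-actinins shifted toward ACTN1, with ACTN1 to ACTN4 at 0.115 ± 0.0013 in attached control, 0.172 ± 0.0029 in attached GFI1, 0.124 ± 0.0040 in floating control and 0.211 ± 0.014 in floating GFI1 libraries. TLN1 to VCL was 1.03 ± 0.0085 in attached control and 1.51 ± 0.022, 1.35 ± 0.043 and 1.60 ± 0.048 in the other groups in the same order. For these 4 ratios no attached GFI1 library overlapped an attached control library, and no floating GFI1 library a floating control library. The genes were chosen with earlier results known, and the share over all gene pairs was not computed. For the CPM of single genes, 67% of all genes did not overlap in attached cells and 64.4% in floating cells. The ratio of TAGLN to TAGLN2 overlapped between GFI1 and control libraries in both attached and floating cells.

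**Figure D3:**
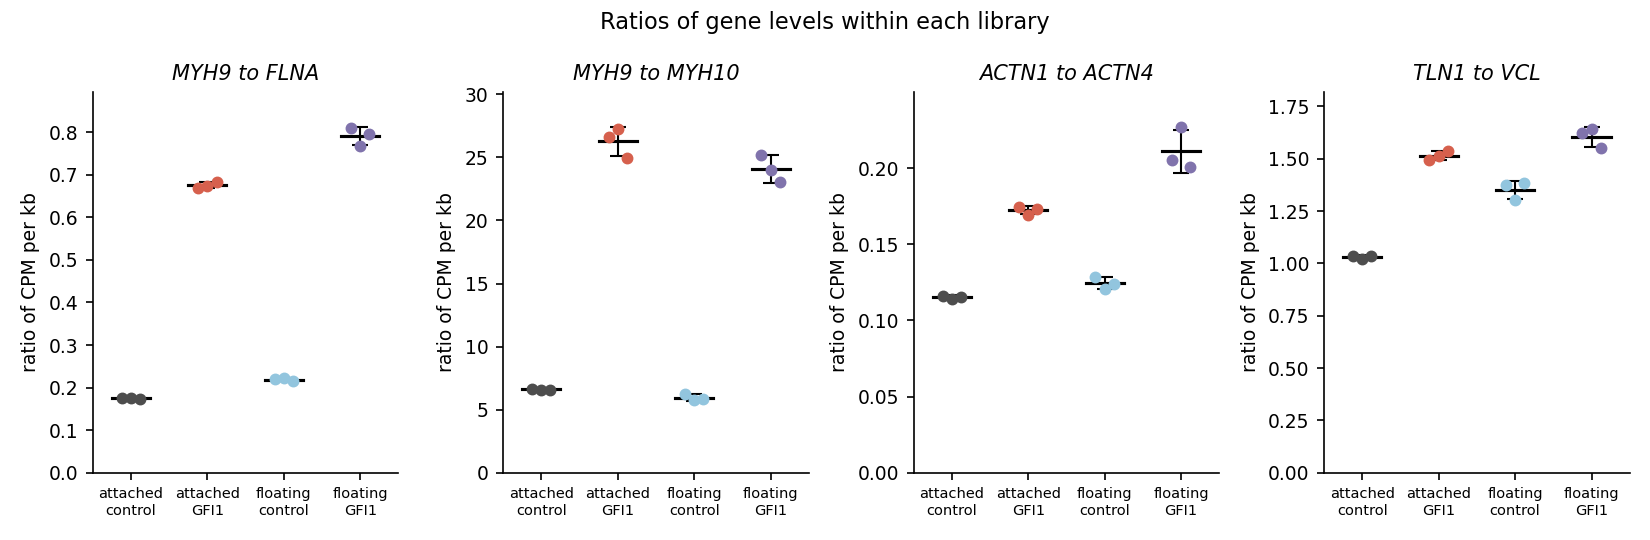
Ratios of CPM per kilobase between 2 genes of the same library (y axis, linear from 0) in the 4 groups (x axis). Points are libraries, the black line the group mean and the bar 1 SD. MYH9 to FLNA and MYH9 to MYH10 were low in both control groups and high in both GFI1 groups, with means of 0.175 and 0.219 against 0.675 and 0.792 for the first.

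Genes related by sequence or by fold did not all follow. Of 14 such paralogs, 11 were tested. In attached cells with GFI1 3 were higher (29.5% of all genes), 7 lower (32.8% of all genes) and 1 neither, with a median of -0.23. MYH10 fell by 1.20 ± 0.05 on the log2 scale (edgeR adjusted p = 4.87e-16), opposite to MYH9. MYH14, for the heavy chain of myosin IIC, rose by 0.96 ± 0.08 (edgeR adjusted p = 8.73e-11), as MYH9 did. TAGLN2 rose by 0.19 ± 0.04 (edgeR adjusted p = 0.000313) from a level of 707 ± 25.1 CPM, while LPP, a zyxin relative, fell by 0.82 ± 0.05 (edgeR adjusted p = 9.39e-14) and TRIP6, also of the zyxin family, was at -0.08 ± 0.04 (edgeR adjusted p = 0.11). CTNNA1, for the alpha-catenin of cell to cell junctions that is related to vinculin, fell by 0.71 ± 0.04 (edgeR adjusted p = 1.42e-13). FLNC was at 1.13 ± 0.43 (edgeR adjusted p = 0.0249), with at most 15 counts per library, and its call was lost under DESeq2 (adjusted p = 0.145), with no low-count filter and without any 1 of the attached control libraries or attached GFI1 replicate 3. It had 5, 6 and 5 counts in attached control and 11, 14 and 15 counts in attached GFI1 replicates. No control library held 10 counts, so FLNC passed the filter on low counts only through GFI1 libraries, where it was high. Its place among the 3 higher paralogs is therefore no support for a rise. TLN2, for talin 2, was at -0.23 ± 0.08 (edgeR adjusted p = 0.0175), a call lost under DESeq2 (adjusted p = 0.0646), by upper quartile or total-count scaling, and without attached control replicate 2 (-0.20, edgeR adjusted p = 0.0766) or attached GFI1 replicate 2 (-0.14, edgeR adjusted p = 0.156). Total-count scaling also ended the calls of MYL6 and MYL12A as lower, and ACTN2, ACTN3 and TAGLN3 were too low to be tested.

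With suspension of control cells, 7 of the 11 paralogs fell (20.5% of all genes), none rose (19.6% of all genes) and 4 were neither, with a median of -0.33. TRIP6 fell by 0.71 ± 0.05 (edgeR adjusted p = 6.33e-12), TLN2 by 0.71 ± 0.09 (edgeR adjusted p = 2.52e-07) and MYH10 by 0.64 ± 0.05 (edgeR adjusted p = 3.99e-10). In the interaction 5 paralogs were higher (4.76% of all genes), none lower (6.01% of all genes) and 6 neither, with MYL6 at 0.40 ± 0.08 (edgeR adjusted p = 0.0021).

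Other genes of the same machinery were read from 6 lists. Beside their counts stand the shares of all genes tested. With GFI1 in attached cells 29.5% were higher and 32.8% lower, and with suspension of control cells 19.6% were higher and 20.5% lower. A list count near these shares does not set the list apart from other genes. Of 38 tested focal adhesion adaptors, 11 were higher and 19 lower with GFI1 in attached cells (median -0.17). With suspension of control cells, 7 were higher and 20 lower (median -0.14). The adaptor BCAR1, a scaffold of focal adhesion kinase and Src signalling, rose by 1.70 ± 0.05 with GFI1 (edgeR adjusted p = 1.85e-20), and NEDD9, a scaffold of the same family, fell by 2.23 ± 0.05 (edgeR adjusted p = 2.87e-22). With suspension of control cells AJUBA, a LIM protein, fell by 1.67 ± 0.06 (edgeR adjusted p = 8.46e-17) and PDLIM5, a PDZ and LIM protein, rose by 0.32 ± 0.05 (edgeR adjusted p = 3.67e-06). PDLIM5 was lower with GFI1 in attached cells, at -1.43 to -1.35 when 1 library was left out at a time.

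Among 19 tested actins and stress fibre proteins, 13 were lower and 6 higher with GFI1 in attached cells (median -0.74), and 12 were lower and 2 higher with suspension of control cells (median -0.44). CALD1, for the actin-binding regulator caldesmon, fell from 184 ± 6.76 to 17.9 ± 0.90 CPM with GFI1, or by 3.36 ± 0.06 on the log2 scale (edgeR adjusted p = 3.65e-24), whereas the formin gene FHOD1 rose by 1.06 ± 0.04 (edgeR adjusted p = 1.20e-16). TPM1, for a tropomyosin that winds along actin filaments, fell by 1.52 ± 0.04 with suspension of control cells (edgeR adjusted p = 1.33e-19), and LIMA1, for an actin bundler, rose by 0.51 ± 0.07 (edgeR adjusted p = 3.21e-06). With GFI1 in attached cells LIMA1 ran from -0.24 to -0.18 when 1 library was left out at a time. Under DESeq2 it was at -0.21 there (adjusted p = 0.0739).

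Of 19 tested cross-linkers and membrane linkers, 5 were higher and 10 lower with GFI1 in attached cells (median -0.16), and 3 higher and 12 lower with suspension of control cells (median -0.30). UTRN, for utrophin, rose by 0.93 ± 0.05 with GFI1 (edgeR adjusted p = 1.12e-14) and the spectrin gene SPTBN1 fell by 1.85 ± 0.05 (edgeR adjusted p = 4.37e-21). With suspension the plastin gene PLS1 rose by 0.39 ± 0.05 (edgeR adjusted p = 9.09e-07) and the spectrin gene SPTAN1 fell by 0.52 ± 0.04 (edgeR adjusted p = 2.34e-10). PLS1 was lower with GFI1 in attached cells, at -1.03 to -0.98 when 1 library was left out at a time.

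Genes that control contractility were divided with GFI1, with 11 of 29 higher and 13 lower in attached cells (median -0.06), and 5 higher and 18 lower with suspension of control cells (median -0.16). ARHGEF2, an exchange factor for RhoA, rose in both comparisons, by 0.89 ± 0.05 with GFI1 (edgeR adjusted p = 5.26e-14) and 0.40 ± 0.05 with suspension (edgeR adjusted p = 7.64e-07). MYLK, for myosin light chain kinase, fell in both, by 1.10 ± 0.06 (edgeR adjusted p = 3.09e-14) and 1.29 ± 0.06 (edgeR adjusted p = 2.06e-14). DAPK1, a kinase that can also phosphorylate myosin light chains, fell by 2.73 ± 0.06 with GFI1 (edgeR adjusted p = 2.10e-22). It was higher with suspension of control cells, at 0.27 to 0.33 when 1 library was left out at a time.

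All 7 genes of the SRF and MRTF list were tested, and in attached cells with GFI1 6 were lower and none higher (median -0.60). The coactivator MRTFA fell by 1.59 ± 0.05 with GFI1 (edgeR adjusted p = 5.32e-19) and by 0.76 ± 0.05 with suspension of control cells (edgeR adjusted p = 5.50e-12), and FHL1, for a LIM protein, rose by 0.61 ± 0.11 with suspension (edgeR adjusted p = 8.98e-05). FHL1 was lower with GFI1 in attached cells, at -2.39 to -2.23 when 1 library was left out at a time. With suspension 2 of the 7 rose and 4 fell (median -0.13). Of the calpain system and the regulators of filamin and talin, 7 genes were tested. With GFI1 in attached cells, 2 were higher and 5 lower (median -0.36). With suspension of control cells, 2 were higher and 2 lower (median -0.11). CAST, for the calpain inhibitor calpastatin, fell by 2.42 ± 0.05 with GFI1 (edgeR adjusted p = 4.01e-23) and rose by 0.73 ± 0.05 with suspension of control cells (edgeR adjusted p = 1.84e-12). CAPN2, for a calpain that can cleave talin and filamin, did the reverse, up by 0.22 ± 0.04 (edgeR adjusted p = 3.16e-05) and down by 0.28 ± 0.04 (edgeR adjusted p = 2.10e-06).

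**Figure D4:**
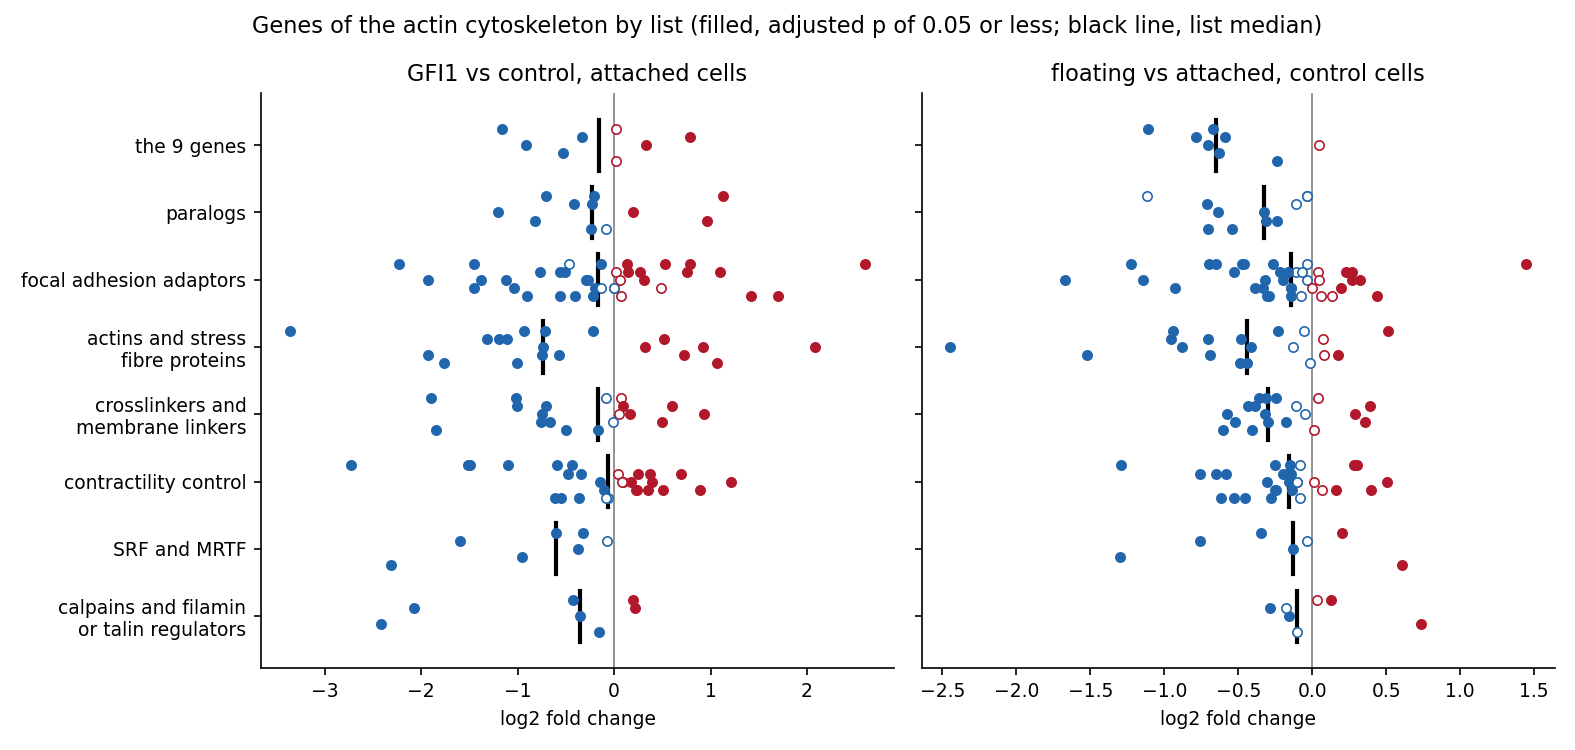
Log2 fold changes (x axis) of the tested genes of 8 groups of cytoskeletal genes (y axis), for GFI1 against control in attached cells and for floating against attached control cells. Each point is a gene, filled at an adjusted p of 0.05 or less in edgeR, blue below 0 and red above, and the black line is the median of the group. With GFI1 each list holds genes on both sides of 0 except the SRF and MRTF list, while with suspension the median is below 0 in all 8, from -0.65 for the 9 genes to -0.11.

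The genes whose pattern lay nearest to each of the 8 were sought among 11878 protein-coding genes, by the root mean square difference of log2 CPM centred over the 12 libraries. FLNA was nearest to CYTH3, at 0.094 against an SD of FLNA itself over the libraries of 0.69, and MYH9 to TENM3, at 0.096 against an SD of 0.60. ACTN1 was nearest to SLC22A5 (0.051, SD of ACTN1 0.24), ACTN4 to EIF5A (0.073, SD 0.51) and VCL to DBN1 (0.052, SD 0.30). TLN1 was nearest to FBRSL1 (0.030, SD of TLN1 0.11), ZYX to TFCP2L1 (0.062, SD 0.31) and TAGLN to PAPOLG (0.065, SD 0.28). Among the 8 themselves ACTN1 and VCL were the closest pair (0.13), FLNA and ACTN4 stood at 0.20, and FLNA and MYH9 were farthest apart (0.96). These distances describe 12 libraries that share 4 groups. They are not scaled by how much a gene varies, so each is to be read against the SD of its genes.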

How the data were processed

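Poly-A-selected mRNA of 12 libraries was sequenced by the authors on an Illumina NovaSeq instrument. The deposited values are raw counts per gene. The study's methods give FastQC v0.11.8, Hisat2 v2.0.5 to GRCh38 and featureCounts v1.5.0-p3, whereas the submitters' processing notes name Bowtie2 and HTSeq. Annotation release and strand setting are not given in the sources used here. Counts were analysed with edgeR 4.0.16 in R 4.3.3 (filterByExpr with minimum count 10 and total 15, TMM scaling, 1 quasi-likelihood model of 4 group means, biological coefficient of variation 4.86%). Tests were two-sided, with Benjamini-Hochberg adjustment over 17829 genes in each comparison and calls at 0.05. Log2 CPM used a prior count of 2, and levels per kilobase the gene length the authors deposited. The code was tested on simulated data. GENCODE v44 positions were identical to the deposited ones for VCL and differed at a start or end for the other 8 genes.

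The genes and lists were chosen with earlier results of these data known. Named were the 9 genes, tested paralogs, GFI1, the nearest gene to each, and from every other list the most significant gene per direction for GFI1 in attached cells and for suspension of control cells. REFLNA and its paralog were not matched, and 1 gene is not reported here. Alternatives were DESeq2 1.42.0, other scalings and filters, only the groups compared, a replicate block, a 2-fold minimum, and omission of single libraries.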

Additional observations from a re-analysis of the deposited data

Results flagged for a closer look

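Each gene named here differed in its GFI1 effect between floating and attached cells, or equally in its suspension effect between genotypes, by the interaction test of edgeR at an adjusted p of 0.05 or less. Values are differences of log2 fold changes, and a positive value means that GFI1-expressing cells fell less, or rose more, with suspension than control cells. Of the 9 genes, these were ZYX (0.50), ACTN1 (0.46), VCL (0.44), FLNA (0.41), MYH9 (0.32) and ACTN4 (0.29). For ACTN1 the GFI1 effect itself changed sign, being lower in attached and higher in floating cells, the latter a call that rests on floating control replicate 2 and floating GFI1 replicate 2. Paralogs with a positive difference were MYL6 (0.40), TAGLN2 (0.30), MYH10 (0.30), TRIP6 (0.27) and LPP (0.25), where the LPP call was lost without attached GFI1 replicate 1 (0.23, edgeR adjusted p = 0.0637).

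Only genes named in this text are listed, and the 6 lists hold more interaction calls. Higher and lower there were 7 and 3 of 38 focal adhesion adaptors, and 6 and 2 of 19 actins and stress fibre proteins. For cross-linkers and membrane linkers they were 7 and 1 of 19, for contractility control 3 and 2 of 29. The SRF and MRTF list had 2 and 0 of 7, the calpain list 0 and 1 of 7. Over all genes tested, 4.76% were higher and 6.01% lower. Other named genes with a positive difference were AJUBA (0.52), BCAR1 (0.50), MRTFA (0.48), ACTB (0.30) and SPTAN1 (0.29). Negative differences were found for MYLK (-0.53), CAST (-0.49), PLS1 (-0.49), LIMA1 (-0.36) and PDLIM5 (-0.28), and the LIMA1 call was lost in 7 of the 12 fits that left out a library, those without attached control replicate 2 or 3, attached GFI1 replicate 1 or 2, floating control replicate 2 or 3, or floating GFI1 replicate 1, where it ran from -0.36 to -0.32, under DESeq2 (-0.36, adjusted p = 0.0648) and with no low-count filter (-0.34, edgeR adjusted p = 0.0922). ACTB was chosen after its values were seen.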

How the results depend on the processing

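With a fold change of at least 2 required as well, 1 of the 8 genes was called for GFI1 in attached cells (18.2% of all genes), 1 for GFI1 in floating cells (17.3%), 1 for suspension of control cells (5.1%), 0 for suspension of GFI1 cells (2.8%) and 0 in the interaction (1.35%). Leaving out 1 library at a time gave 4 to 8 genes for suspension of GFI1 cells, the 4 without floating GFI1 replicate 1. The replicate block gave 6, 7, 7, 7 and 6 genes in the 5 comparisons, the same counts as without it. In the main fit 62.3%, 60.4%, 40.1%, 31.3% and 10.8% of all genes were called, in the same order. The shares of all genes with the block or with a library left out are not given here. Same-numbered libraries did not deviate together (correlations from -0.031 to 0.031 over 18 pairs), so the numbers were not taken to pair them. Over all alternatives and the 8 genes, 765 values kept direction and side of the threshold, 7 passed it newly, 18 no longer passed it and 2 changed sign. By total-count scaling the sign changed for VCL with GFI1 in floating cells (0.035), TRIP6 with GFI1 in attached cells (0.065), FHOD1 with suspension of control cells (0.0036) and TPM1 in the interaction (-0.0059), and by upper quartile scaling for FHOD1 with suspension of control cells (0.0028). Other sign changes came from leaving out 1 library and are given as ranges. ZYX with GFI1 in attached cells ran from -0.0090 to 0.043. With suspension of control cells FHOD1 ran from -0.050 to 0.0026 and SPTBN1 from -0.011 to 0.036. With suspension of GFI1 cells MYL12A ran from -0.015 to 0.028, LPP from -0.047 to 0.039, FHL1 from -0.21 to 0.15, PDLIM5 from -0.032 to 0.087 and SPTBN1 from -0.096 to 0.0036. In the interaction TPM1 ran from -0.024 to 0.035, MYL12B from -0.027 to 0.058 and ACTG1 from -0.14 to 0.031. Counts of at most 13 per library for MYL9 and 15 for FLNC limited what could be read from those genes. The cause of these changes was not tested.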

Other observations

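The cytoplasmic actins, chosen here after their values were seen, were lower with GFI1 and with suspension, but by different amounts. ACTB, for beta-actin, was at 5055 ± 200 CPM (SD, n = 3) in attached control, 2646 ± 40.3 in attached GFI1, 2638 ± 70.3 in floating control and 1699 ± 91.0 CPM in floating GFI1 libraries, so that, as for FLNA, the middle groups lay close together. ACTG1, for gamma-actin, was at 4233 ± 209, 1701 ± 52.2, 3036 ± 97.4 and 1194 ± 125 CPM in the same order, a larger fall with GFI1 (-1.32 ± 0.06 attached and -1.35 ± 0.06 floating) and a smaller one with suspension (-0.48 ± 0.06 in control cells). The interaction passed for ACTB (0.30 ± 0.06, edgeR adjusted p = 0.00196) and not for ACTG1 (-0.03 ± 0.08, edgeR adjusted p = 0.866). Reads of these near-identical genes and of their pseudogenes may be split between them.

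The ratio of TAGLN to its paralog TAGLN2, in counts per kilobase, lay between 0.0067 and 0.012 in every library. It was 0.0067 to 0.0082 in attached control and 0.0092 to 0.0103 in floating control libraries. In attached GFI1 libraries it was 0.0073 to 0.0094, and in floating GFI1 libraries 0.0096 to 0.0116, so neither suspension comparison overlapped. For the CPM of single genes, 49.9% of all genes did not overlap with suspension of control cells and 41.4% of GFI1 cells.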
